A study of Mus musculus with 6 samples.

Results

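Of the 36291 gene rows in the count table, 63 belonged to the Wnt pathway by their symbols. They comprised 19 Wnt ligands, 10 Frizzled receptors, 5 further receptors (Lrp5, Lrp6, Ror1, Ror2 and Ryk), 10 secreted inhibitors, 7 genes of the R-spondin system, 7 genes of the Dishevelled, Axin and Naked families, and 5 Tcf and Lef transcription factors and Apcdd1 together. Expression was measured by mRNA sequencing of green fluorescent (eGFP+) cells sorted at E14.5 from the telencephalon of mouse embryos of the Swiss strain. All cells, wild-type (WT) and knockout (KO) alike, were sorted as targets of Nkx2-1-iCre, a Cre recombinase driven by Nkx2-1, a gene of the medial ganglionic eminence (MGE), where many cortical interneurons are born. The KO removes Sip1, now called Zeb2, in the Nkx2-1 lineage, so the deletion is limited to cells in which this driver has acted. The labels give no other allele for either genotype and do not say whether a library came from 1 embryo or several. There were 3 WT and 3 KO libraries, and each genotype had 1 library numbered K77, K79 and K80. Values of single libraries are given in that order.

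Wnt ligands are lipid-modified secreted proteins that bind Frizzled receptors. With Lrp5 or Lrp6 as co-receptor they stabilise beta-catenin, which acts with Tcf and Lef factors on target genes, whereas with Ror or Ryk receptors they act on cell polarity and movement without beta-catenin. Secreted antagonists of the Dkk and Sfrp families limit the signal, and several genes, among them Axin2, Nkd1, Znrf3 and Dkk1, are known targets of the pathway that feed back on it. In the developing telencephalon, Wnt signalling is known for roles in dorsoventral patterning, progenitor division and neuronal migration.

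Gene counts totalled 8323531 to 11069437 per library. Zeb2 was at 705, 513 and 768 CPM (read counts scaled to a common library size) in WT and 343, 272 and 307 CPM in KO, so that it fell by 1.11 on the log2 scale (adjusted p = 0.00116 by edgeR). The deleted part of the gene is not named in the labels, so reads from the remainder of its transcript may be counted. Markers of the sorted lineage were high in all libraries, the 11 MGE genes summing to 5316 to 6133 CPM in WT and 6062 to 6991 in KO. WT K79 stood apart in sex-linked genes. It held 26109 Xist counts against 13 to 28 in the other 5 libraries, and 0 to 3 counts of Ddx3y, Eif2s3y, Kdm5d and Uty against 310 to 1276. Members whose call changed without it are given with that result.

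Of the 63 genes, 43 had enough counts to be tested in the fit over 13835 genes. Of these, 2 rose in KO (Dkk1 and Wnt5a), 2 fell (Ror2 and Sfrp2) and 39 were not called by edgeR at an adjusted p of 0.05. That is 9.30% called, beside 6.27% of all genes tested (3.64% higher and 2.62% lower). At an unadjusted p under 0.05 there were 8 members, or 18.6%, against 18.4% of all genes. WT and KO libraries did not overlap for 6 members, or 14.0%, against 23.2% of all genes. The median log2 fold change of the 43 was -0.03, beside -0.01 over all tested genes. These shares lay on both sides of the background, and the pathway as a set was not tested. A fit with the K number as a block called 5 members, Sfrp4 being the addition, beside 10.6% of all genes (6.13% higher and 4.45% lower). DESeq2 called 3 members, all but Sfrp2, beside 6.84% of all genes (4.03% higher and 2.8% lower), and limma voom the same 4 as edgeR, beside 6.3% (3.68% higher and 2.62% lower). Without WT K79, 2 members rose, Dkk1 and Wnt5a, and 3 fell, Ror2, Sfrp4 and Wnt7a, beside 7.44% of all genes called (4.6% higher and 2.84% lower).

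**Figure D1:**
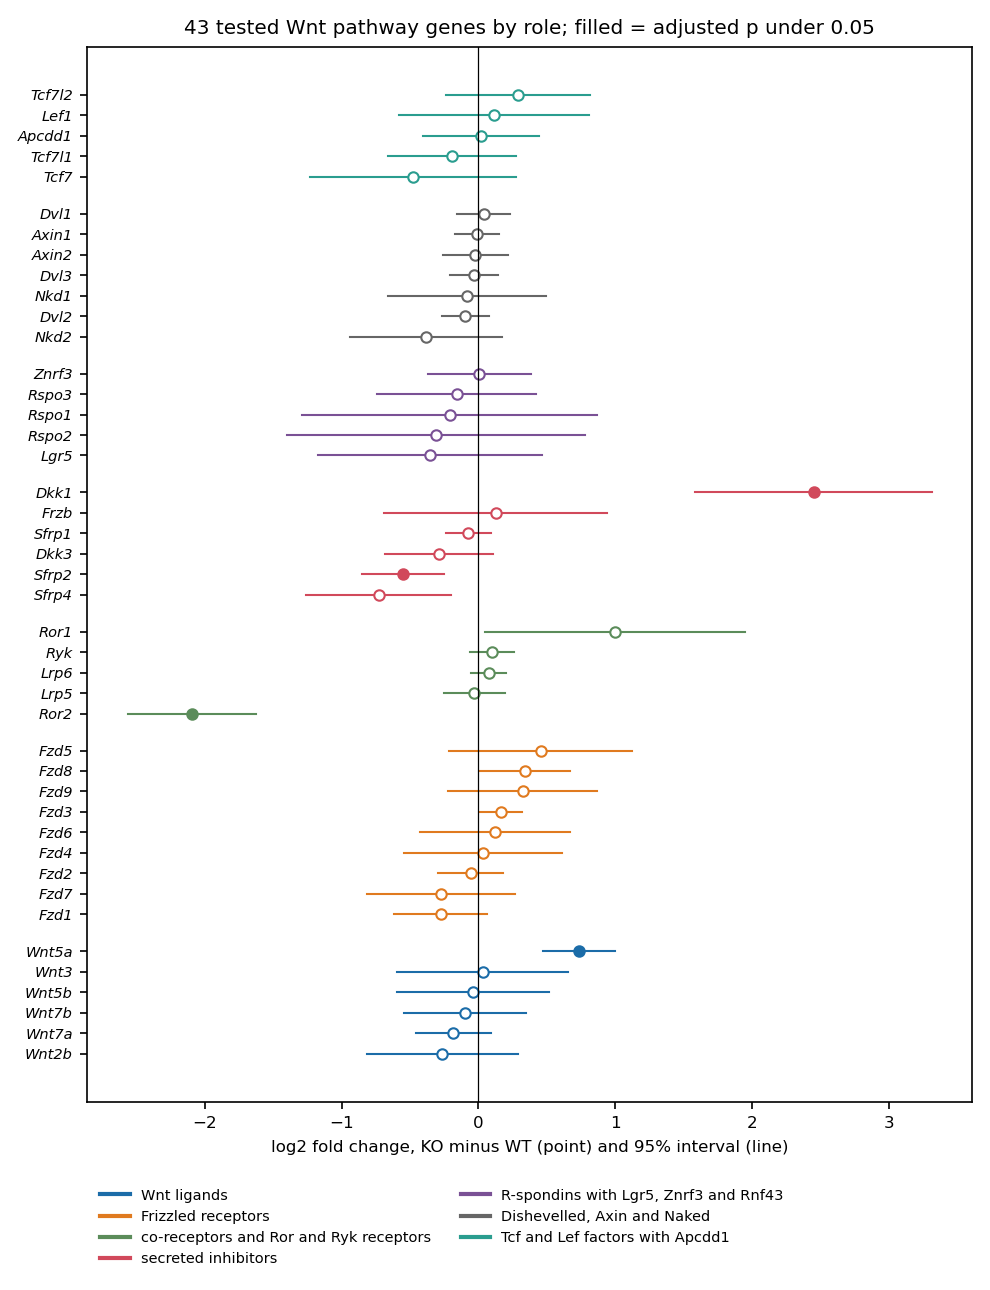
Log2 fold change of KO against WT (horizontal axis, points) with its 95% interval (lines) for the 43 tested Wnt pathway genes, grouped by role and filled where edgeR called the gene. Dkk1 (2.45) and Ror2 (-2.10) lie farthest from 0, and 24 of the 39 genes not called lie within 0.2 of it.

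The 250 bases upstream of the start are shown for Dkk1, Ror2 and Sfrp2, the called members with an entry in the RefSeq promoter table (build GRCm38.p6). Capitals mark matches to CTTTGAT or CTTTGAA, forms of the motif bound by Tcf and Lef factors, and to CAGGTG or CAGGTA, E-box forms bound by Zeb2, searched on both strands. The windows are chr19:30549497-30549746 (minus strand) for Dkk1, chr13:53286125-53286374 (minus strand) for Ror2 and chr3:83766071-83766320 (plus strand) for Sfrp2, each written 5′ to 3′ in the direction of the gene.
Dkk1: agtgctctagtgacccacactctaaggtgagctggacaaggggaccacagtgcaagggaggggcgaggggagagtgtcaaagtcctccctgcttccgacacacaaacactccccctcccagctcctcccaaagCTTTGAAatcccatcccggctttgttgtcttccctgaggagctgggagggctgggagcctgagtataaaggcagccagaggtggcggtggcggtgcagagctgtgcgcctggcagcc
Ror2: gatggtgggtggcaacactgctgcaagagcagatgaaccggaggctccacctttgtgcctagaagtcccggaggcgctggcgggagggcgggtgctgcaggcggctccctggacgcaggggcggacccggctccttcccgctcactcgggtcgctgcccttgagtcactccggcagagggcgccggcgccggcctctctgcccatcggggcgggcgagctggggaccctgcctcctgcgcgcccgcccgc
Sfrp2: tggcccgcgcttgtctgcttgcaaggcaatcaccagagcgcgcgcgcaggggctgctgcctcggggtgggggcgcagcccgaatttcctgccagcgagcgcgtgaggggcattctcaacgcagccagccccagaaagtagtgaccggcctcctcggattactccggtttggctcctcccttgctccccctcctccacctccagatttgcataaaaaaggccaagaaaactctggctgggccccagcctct
The Dkk1 window held 1 match, CTTTGAA, whose first base lies 117 bases before the start. The Ror2 and Sfrp2 windows held none of these letters. Over all 32851 RefSeq windows of this length, 7.48% held a Tcf or Lef match and 25.4% an E-box match. Among the 52 windows of the 43 members in the table, 3 (5.77%) held the former, in Dkk1, Wnt11 and Wnt5b, and 14 (26.9%) the latter.

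Among the ligands, Wnt5a rose in KO. This ligand is best known for signalling through Ror receptors without beta-catenin. Its level was 17.7, 22.1 and 16.6 CPM in WT and 29.7, 31.8 and 32.5 CPM in KO. Each KO library lay above each WT library. The fold change was 1.67-fold, or 0.74 on the log2 scale (SE 0.118, 95% interval 0.47 to 1.00, adjusted p = 0.00458 by edgeR). The call held without each library in turn (adjusted p 0.00118 to 0.0315) and in the authors' deposited table (log2 fold change 0.74). Exons of Gm2670, a gene on the opposite strand with no row in the count table, overlap Wnt5a in GENCODE vM21, and whether reads were counted by strand is not stated.

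Wnt7a and Wnt7b, the other abundant ligands, were not called. Wnt7a had 158, 118 and 170 CPM in WT and 144, 125 and 124 CPM in KO. The WT libraries ranged widely, with K79 below all KO libraries and K77 and K80 above them. The log2 fold change was -0.18 (SE 0.123, 95% interval -0.46 to 0.09, edgeR adjusted p = 0.491). Without WT K79 it was -0.33 and was called (adjusted p = 0.0391), the adjusted p over all alternatives running from 0.0391 to 0.811. Wnt7b was at 40.8 ± 12.4 CPM in WT and 38.1 ± 4.75 in KO (SD, n = 3), with a log2 fold change of -0.10 (95% interval -0.54 to 0.35). Wnt2b, Wnt3 and Wnt5b were tested and not called, at -0.26, 0.03 and -0.04.

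Compared per length of exon, Wnt7a made up most of the ligand level. Its share of the summed CPM per kb of all 19 ligands was 76.3% ± 7.21 in WT and 72.9% ± 0.686 in KO, with Wnt7b at 13.9% ± 4.85 and 13.7% ± 0.677 (SD, n = 3). The share of Wnt5a was 3.48, 5.25 and 3.29% in WT, and 6.17, 7.45 and 7.74% in KO. The summed ligand level was 61.1 ± 6.32 CPM per kb in WT and 56.6 ± 4.34 in KO, ranges that overlap. These lengths are those of GENCODE vM21 exons and not of the authors' annotation.

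The remaining 13 ligands were below the filter. Wnt6, Wnt8a and Wnt9b had 0 counts in all 6 libraries, which allows up to 0.271 to 0.360 CPM in a library by counting error alone. Wnt4 had 3, 5 and 2 counts in WT and 2, 14 and 7 in KO, and Wnt8b 5, 10 and 3 in WT and 7, 6 and 4 in KO. Wnt1, Wnt2, Wnt3a, Wnt9a, Wnt10a, Wnt10b, Wnt11 and Wnt16 had at most 7 counts in any library. The dorsal midline ligand Wnt3a had 0, 7 and 1 in WT and 4, 3 and 1 in KO.

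None of the 9 tested Frizzled receptors was called by edgeR, with 2 at an unadjusted p under 0.05 and 0 called by DESeq2 or limma voom. Fzd3, known for its part in axon growth and planar polarity, had 144, 148 and 146 CPM in WT and 154, 181 and 156 CPM in KO. Its libraries did not overlap, but the difference was small, a log2 fold change of 0.17 (95% interval 0.01 to 0.32, adjusted p = 0.218). Fzd8 was higher in KO in each of the 3 pairs by K number, with overlapping libraries, by 0.34 (95% interval 0.01 to 0.67, adjusted p = 0.253). Of all tested genes, 22.3% were higher in KO in all 3 pairs. Fzd2 differed by -0.06 (adjusted p = 0.84) and Fzd1 by -0.28 (adjusted p = 0.387). Fzd5 had the highest value of the family, 0.45, on 34 to 58 counts in WT and 29 to 77 in KO. Fzd4, Fzd6, Fzd7 and Fzd9 ranged from -0.28 to 0.32, and Fzd10, with at most 8 counts, was not tested. Per length, Fzd3 made up 28.7% ± 3.504 of the summed Frizzled level in WT and 31.4% ± 0.249 in KO (SD, n = 3).

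Ror2, a receptor tyrosine kinase for Wnt5a, had the deepest fall among the tested members. Its counts were 183, 134 and 139 in WT and 30, 36 and 39 in KO. As levels these are 19.95, 12.9 and 13.2 CPM in WT and 3.61, 3.55 and 3.54 CPM in KO. The KO libraries were within 0.1 CPM of each other, and all lay far under the lowest WT library. The fall was 4.28-fold, or -2.10 on the log2 scale (SE 0.21, 95% interval -2.57 to -1.63, adjusted p = 0.000347 by edgeR). It was called without each library in turn (adjusted p 0.000285 to 0.00417) and in the authors' deposited table (-2.10).

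The related receptor gene Ror1 lay the other way, without passing the test. It had 4, 18 and 10 counts in WT and 12, 27 and 24 in KO. Each KO library was above the WT library of its number, as held for 22.3% of all tested genes, while the genotypes overlapped. The log2 fold change was 1.00 (SE 0.425, 95% interval 0.05 to 1.95, edgeR adjusted p = 0.243, and 0.0773 with the K number as a block). Per length, Ror2 made up 98.4, 91.0 and 94.97% of the summed Ror1 and Ror2 level in WT, and 77.3, 64.4 and 68.8% in KO. Their summed level was 3.796 ± 0.853 CPM per kb in WT and 1.204 ± 0.0998 in KO (SD, n = 3).

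Oligodendrocyte precursor markers fell in the same libraries as Ror2. Of 6 markers, edgeR called 5 lower, beside 2.62% of all tested genes. Among them were Pdgfra (-2.29), Olig1 (-1.81), Cspg4 (-2.00) and Gpr17 (-4.07). The summed level of the 6 markers was 126 to 148 CPM in WT and 50.9 to 59.3 in KO. Sox10 was at 0 counts in KO K80. Their part in the Ror2 result was not tested. In sorted bulk samples, fewer cells of a type and less RNA per cell cannot be told apart.

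None of the beta-catenin co-receptors or Ryk was called. Lrp6 was at 162 ± 5.04 CPM in WT and 171 ± 7.99 in KO (SD, n = 3), with a log2 fold change of 0.07 (95% interval -0.05 to 0.20, edgeR adjusted p = 0.562). Lrp5 differed by -0.03 (95% interval -0.25 to 0.19) and Ryk by 0.10 (95% interval -0.06 to 0.26).

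**Figure D2:**
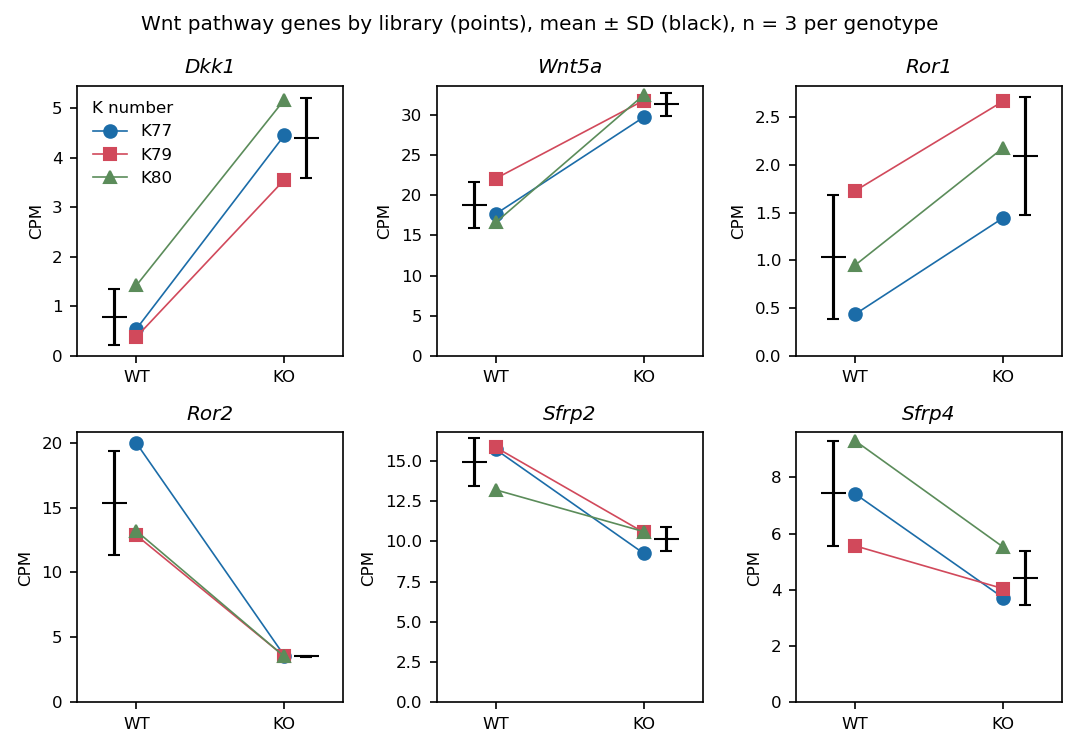
Level in CPM (vertical axis) of 6 genes in each WT and KO library, with lines joining libraries of the same K number and black bars for mean ± SD (n = 3). Ror2 sits at 3.54 to 3.61 CPM in KO against 12.9 to 19.95 in WT, and Ror1 overlaps between genotypes although each line goes up.

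The secreted inhibitors changed in different directions. Dkk1, which blocks Lrp5 and Lrp6 and is itself a target of beta-catenin, rose from 5, 4 and 15 counts in WT to 37, 36 and 57 in KO. These are 0.545, 0.384 and 1.42 CPM in WT and 4.45, 3.55 and 5.17 CPM in KO. The lowest KO library was above the highest WT library, K80. The rise was 5.47-fold, or 2.45 on the log2 scale (SE 0.387, 95% interval 1.59 to 3.31, adjusted p = 0.00441 by edgeR). It was called without each library in turn, at log2 fold changes of 2.11 to 3.22 and adjusted p of 0.00158 to 0.0298, and in the authors' deposited table (2.48). The WT counts are few, so the size of the fold is loosely held.

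Sfrp2 and Sfrp4, which encode soluble Frizzled-related proteins that bind Wnt ligands, were lower. Sfrp2 had 15.7, 15.8 and 13.2 CPM in WT and 9.26, 10.6 and 10.6 CPM in KO, with no overlap. It fell by 0.55 on the log2 scale (SE 0.134, edgeR adjusted p = 0.039), but was called in 1 of 6 fits that left out a library, the one without WT K80 (adjusted p 0.0345 to 0.13 over the 6). DESeq2 did not call it (adjusted p = 0.067). In GENCODE vM21 the gene Gm26771 overlaps its exons on the opposite strand. Sfrp4 had 7.41, 5.57 and 9.30 CPM in WT and 3.73, 4.05 and 5.53 CPM in KO. The highest KO value nearly reached the lowest WT value. Its log2 fold change of -0.73 (SE 0.237) was not called (edgeR adjusted p = 0.117), but passed in the fit with the block (adjusted p = 0.0337), without WT K79 (adjusted p = 0.0447) and with no filter (adjusted p = 0.0472). In the authors' deposited table the adjusted p was 0.0587 for Sfrp2 and 0.0571 for Sfrp4, where 3 of 59 members with a p were called (Dkk1, Wnt5a and Ror2), beside 5.54% of all genes.

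Sfrp1, the most abundant inhibitor, was at 214, 202 and 237 CPM in WT and 217, 194 and 211 CPM in KO. The log2 fold change of -0.07 (95% interval -0.23 to 0.09, edgeR adjusted p = 0.668) was within the spread between libraries. Dkk3 averaged 7.92 ± 1.30 CPM in WT and 6.44 ± 0.546 in KO (SD, n = 3), with an adjusted p of 0.445 by edgeR, and Frzb differed by 0.13. Dkk2, Sfrp5 and Wif1 had at most 9 counts in any library, and Dkk4 had 0 in all 6.

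Genes of the R-spondin system, which controls how many Frizzled receptors remain on the cell, gave no call by edgeR, DESeq2 or limma voom, with 0 of 5 tested at an unadjusted p under 0.05. The ubiquitin ligase gene Znrf3 was at 10.3 ± 2.21 CPM in WT and 10.4 ± 0.323 in KO (SD, n = 3). The ligand gene Rspo3 had 49, 66 and 32 counts in WT and 38, 43 and 48 in KO. Rspo2 had 17, 38 and 8 in WT and 9, 19 and 22 in KO, a WT spread wider than the difference between genotypes (-0.31, 95% interval -1.40 to 0.78, and 0.39 without WT K79). Rspo1 and the receptor gene Lgr5 were near the filter, at 4 to 14 counts. Rnf43, with at most 8 counts, and Rspo4, with 1 count in all, were not tested.

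The 7 intracellular members of the Dishevelled, Axin and Naked families gave 0 calls by edgeR, DESeq2 or limma voom, with 0 at an unadjusted p under 0.05. Dvl1, Dvl2 and Dvl3, the Dishevelled adaptors that relay the signal from Frizzled, differed by 0.04, -0.10 and -0.03. The scaffold gene Axin1 was at 75.1 ± 4.28 CPM in WT and 74.6 ± 3.44 in KO (SD, n = 3), a log2 fold change of -0.01 (95% interval -0.17 to 0.15). Axin2, a widely used readout of beta-catenin activity, had 26.0, 23.5 and 21.2 CPM in WT and 22.4, 24.8 and 22.3 CPM in KO. The genotypes overlapped, and the interval of the difference ran from -0.26 to 0.22 (edgeR adjusted p = 0.945). Nkd1 differed by -0.08 and Nkd2 by -0.38 (95% interval -0.94 to 0.17).

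No transcription factor of the pathway was called either, with 0 of the 5 genes of the group at an unadjusted p under 0.05 by edgeR and 0 called by DESeq2 or limma voom. Tcf7l1 was at 8.94 ± 2.53 CPM in WT and 7.80 ± 0.515 in KO, and Tcf7l2 at 6.05 ± 1.76 and 7.44 ± 1.54 (SD, n = 3). Lef1 had 21 to 46 counts in WT and 35 to 44 in KO, and Tcf7 18 to 31 and 10 to 27. Apcdd1, a membrane inhibitor and known target of the pathway, had 20.5, 23.1 and 14.52 CPM in WT and 24.0, 16.0 and 19.0 CPM in KO. Its difference of 0.02 carries an interval of -0.41 to 0.44. Of the 39 members not called, 32 had a 95% interval inside -1 to 1.

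Ordered by WT level per length, Sfrp1 (49.9 ± 4.09 CPM per kb) and Wnt7a (46.9 ± 8.69) came first and did not differ beyond their spread (SD, n = 3). Dvl1 (21.9 ± 2.26), Axin1 (19.6 ± 1.12), Ryk (19.5 ± 1.07) and Dvl3 (18.1 ± 1.82) followed, each within the spread of its neighbour. Lrp6 (11.9 ± 0.368), Fzd3 (11.4 ± 0.160) and Fzd2 (11.1 ± 1.25) came next. In KO the same 9 genes held the first 9 places. Ror2 moved from place 16 of 63 to 33, with 3.62 ± 0.943 CPM per kb in WT and 0.841 ± 0.00883 in KO, and Wnt5a from 19 to 15, with 2.40 ± 0.370 and 4.002 ± 0.184.

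**Figure D3:**
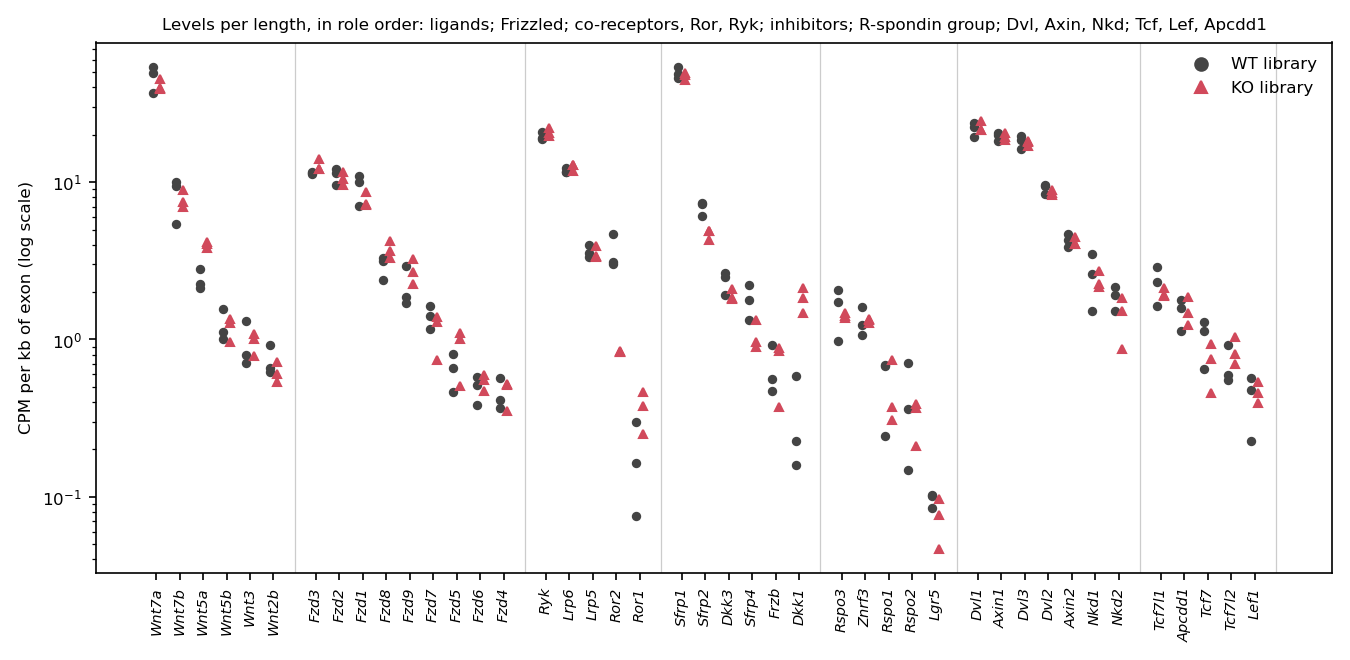
Level per kb of exon (vertical axis, log scale) of the 43 tested genes in each WT library (circles) and KO library (triangles), ordered within roles by WT level. Wnt7a and Sfrp1 stand highest, and the circles and triangles separate most for Ror2 and Dkk1.

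Genes of the pathway outside the symbol rule were taken from 5 lists, beside the same 6.27% of all genes called. The lists were chosen with earlier results of these data known, so their counts are no test of a list against that share. Among genes of Wnt secretion and extracellular handling, 2 rose, 1 fell and 8 were not called of 11 tested, with a median log2 fold change of 0.08. The faller was Wls, which carries Wnt proteins to the cell surface. It had 55.8, 42.8 and 84.6 CPM in WT and 17.7, 18.6 and 17.3 CPM in KO. All KO libraries lay far under the WT libraries, at -1.78 on the log2 scale (SE 0.217, adjusted p = 0.00103 by edgeR). The call held without each library in turn (adjusted p up to 0.0103).

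The risers were Gpc4, a heparan sulfate proteoglycan that binds Wnt ligands, and Sulf1, an enzyme that removes sulfate groups from heparan sulfate. Gpc4 rose from 56.4 ± 8.13 to 114 ± 4.95 CPM (SD, n = 3), a log2 fold change of 1.02 (SE 0.0997, adjusted p = 0.000308 by edgeR). Sulf1 rose by 2.29 (adjusted p = 0.0121 by edgeR), a call that was lost when KO K79, KO K80 or WT K77 was left out (adjusted p up to 0.0628), so that 1 gene of the list rose there. In the fit with the block 4 rose, Gpc3 (1.01) and Lgr4 (0.51) being the additions. Without WT K79, 3 rose, with Lgr4 added (edgeR adjusted p = 0.0155).

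In the list of the beta-catenin destruction complex, edgeR called 1 of 28 genes, which fell, and the median was 0.02. It was Dact1, which binds Dishevelled, at 119, 103 and 132 CPM in WT and 65.5, 60.2 and 61.0 CPM in KO. It fell by 0.92 on the log2 scale (SE 0.0912, edgeR adjusted p = 0.000316), and the call held without each library in turn. With the block 2 rose, Btrc (0.26) and Csnk1g1 (0.20), and Btrc was also called without WT K79.

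Among 23 nuclear partners of beta-catenin 2 rose, 1 fell and 20 were not called (median -0.06). The co-activator gene Bcl9 fell by 0.41 (edgeR adjusted p = 0.00398). The co-repressor gene Tle4 (0.86) and the kinase gene Nlk (0.30) rose, both calls being lost without KO K79 (edgeR adjusted p 0.0676 and 0.0567). With the block 3 rose and 2 fell, adding Tnik (0.36) and Ctnnbip1 (-0.30). Without WT K79, 3 rose, Tnik among them (edgeR adjusted p = 0.00288). Of 23 planar cell polarity genes edgeR called 0, with 5 at an unadjusted p under 0.05, while DESeq2 called 3, limma voom 0 and the blocked fit 2 higher and 2 lower (median 0.03). The nearest were Mapk10 (-0.29, edgeR adjusted p = 0.081) and Ankrd6 (0.42, edgeR adjusted p = 0.084), and the blocked fit added Vangl2 (0.25) and Prickle2 (-0.48). Without WT K79, Mapk10 was called lower and Ankrd6 higher (edgeR adjusted p 0.012 and 0.0295). Of 18 other beta-catenin target genes 1 rose, 1 fell and 16 were not called (median -0.04). The cyclin gene Ccnd2 fell by 0.43, and its call was lost when KO K79, KO K80 or WT K77 was left out (edgeR adjusted p up to 0.0995). Sall4 (1.87) rested on 3 to 10 WT counts and lost its call without any library but WT K77 (edgeR adjusted p up to 0.1). Leaving out WT K80 gave 2 lower genes here and 0 higher.

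**Figure D4:**
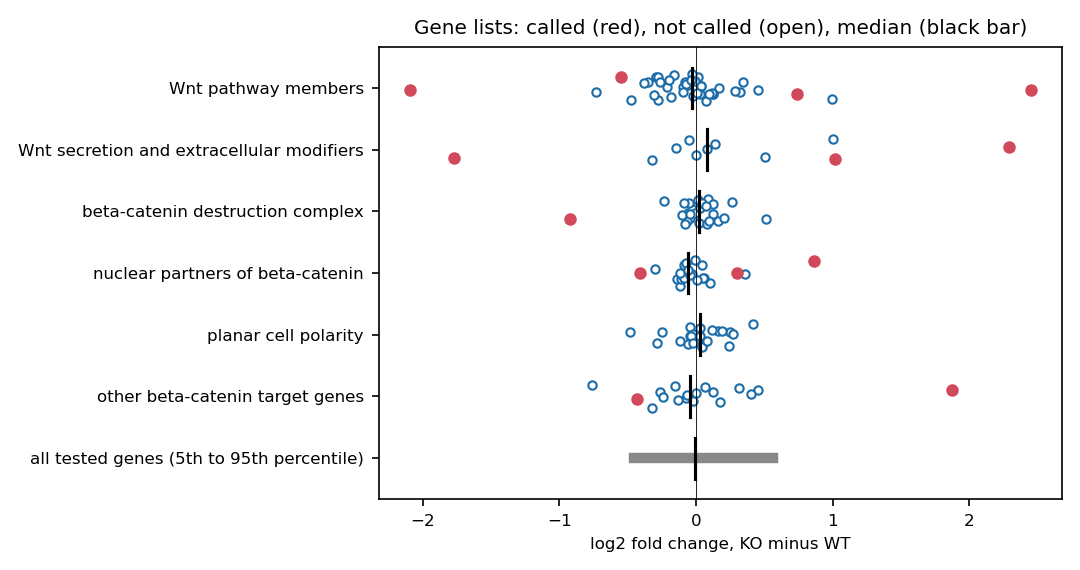
Log2 fold change of KO against WT (horizontal axis) for the tested Wnt pathway genes and the 5 further lists, red where edgeR called the gene, with black bars for medians and a grey bar for the 5th to 95th percentile of all tested genes. List medians lie between -0.06 and 0.08, and Sulf1 (2.29), Sall4 (1.87) and Wls (-1.78) stand farthest out in the added lists.

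Markers of cell types that are known to express Wnt genes were read beside these results. Of all tested genes, 6.27% were called by edgeR (3.64% higher and 2.62% lower) and 10.6% with the block. The 10 markers of cortical hem and choroid plexus, dorsal sources of Wnt ligands, summed to 13.8 to 34.0 CPM in WT and 28.4 to 49.0 in KO. Of the 4 tested, Otx2 rose by 1.71 (edgeR adjusted p = 0.0461, lost by DESeq2 and without WT K77, WT K80, KO K79 or KO K80, at up to 0.184). With the block 2 rose, Otx2 (adjusted p = 0.000806) and Foxj1 (0.74, adjusted p = 0.0337), and 2 were also called higher without KO K77 or with no filter. Log2 fold changes of the 4 tested ran from -0.46 to 1.71, with a median of 0.45. The authors' deposited table called Otx2 (1.72) and Foxj1 (0.73) higher, at adjusted p of 4.3e-21 and 0.0365. There Trp73 was at -0.47 and Lmx1a at 0.14, neither called. Ttr had at most 5 counts and Lmx1b 0 in all libraries, and Lmx1a had 3, 26 and 3 counts in WT and 5, 14 and 16 in KO. The part of these cells in the Wnt5a and Dkk1 results was not tested. The 14 endothelial markers summed to 48.7 to 80.62 CPM in WT and 56.1 to 75.5 in KO, and 0 of 12 tested were called by edgeR, DESeq2 or limma voom (1 at an unadjusted p under 0.05). The lowest p values there were those of Mfsd2a (0.37) and Kdr (-0.34). For the 13 pericyte and meningeal markers the sums were 18.0 to 41.8 and 23.8 to 43.4 CPM, with 0 of 8 tested called by edgeR, DESeq2 or limma voom (1 at an unadjusted p under 0.05) and 1, Col1a2 (1.33), with the block, Dcn (0.90) having the next lowest p. Col1a2 was also called higher in the authors' deposited table (1.35, adjusted p = 0.00494). Over the 8 tested the median log2 fold change was 0.35.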

How the data were processed

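Sorted cells were profiled by poly-A mRNA sequencing in 6 libraries. TopHat 1.2.0, HTSeq 0.5.3p3, DESeq 1.2.2 and build mm9 are named, per the submitters' processing notes, without role or order. Annotation and strand setting are not stated in the labels or headers used here. The authors deposited unnormalized whole read counts of 36291 gene rows, equal in the series table and the library files. Rows that name no gene were left out (no feature 19.8 to 21.8%, ambiguous 1.94 to 1.99% of a library). The authors' deposited comparison table gives, per the file headers, p-values, a ratio (fold) and the log2 of it for groups called A and B. It was read as KO over WT from the sign of Zeb2 there (log2 -1.11), which fell in the libraries labelled KO. That table rests on the same libraries and is no independent support.

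Counts were tested in R 4.3.3 with edgeR 4.0.16: TMM scaling, filterByExpr (minimum count 10), quasi-likelihood tests, and Benjamini-Hochberg adjustment at 0.05 over all 13835 tested genes. Each SE is the effect over the square root of F, and the 95% interval uses the total (prior plus residual) degrees of freedom of that test. Alternatives were RLE scaling, DESeq2 1.42.0, limma 3.58.1 (voom), other filters and thresholds, the K number as a block, and each library left out. edgeR, voom and DESeq2 were tested on simulated data. The common biological coefficient of variation was 9.26%, and replicates differed beyond sampling noise (chi-square per degree of freedom 3.65 to 10.1). The labels do not tie libraries to separate embryos, and p-values therefore reflect only the spread between these libraries.

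Same-numbered libraries shifted together relative to their genotype mean (correlation across genes 0.274, 0.216 and 0.196). Only the fit with the block uses the K number to pair them. The main edgeR fit, DESeq2, voom and the fits leaving out a library do not, so their p-values and intervals are unpaired. The pairing is read from the data, since the labels do not say what the number marks.

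The rule for named genes took called members (either fit), the 3 most abundant tested members per role, members without overlap and at least 0.5 in size, untested members reaching 10 counts, and called genes of other lists (the 4 lowest p at most, and 2 genes in lists without a call). Members and lists were chosen with earlier results of these data known. Further members, Ror1 among them, were named after their values were seen. Levels per kb use the union of GENCODE vM21 exons (GRCm38), not the authors' build. The list of ventricular zone markers is not reported here.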

Additional observations from a re-analysis of the deposited data

How the results depend on the processing

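Dkk1 and Wnt5a were called higher and Ror2 lower under every alternative run. Of the 24 named members, 11 changed sign when a library was left out, none of them called under either fit, for example Rspo2 (-0.31, and 0.39 without WT K79) and Wnt7b (-0.10, and 0.06 without WT K77). The number of members called higher was 2 throughout. The number called lower was 2, and it was 1 with DESeq2 or at an adjusted p of 0.01, and 3 (with Sfrp4) with no filter on low counts. It ran from 1 to 3 when a library was left out, where Sfrp2 was lost without WT K77, WT K79 or any 1 KO library, and Sfrp4 and Wnt7a were gained without WT K79. The replicate block on the K number gave 1463 calls over all genes against 867, and 3 members called lower. All genes called were 427 at an adjusted p of 0.01, and 445 (without KO K80) to 1044 (without WT K79) when a library was left out. Depth limits the 20 untested members, at 14 counts or fewer per library, and leaves the folds of Dkk1 and Ror1 imprecise.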

Other observations

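Some genes of dorsal midline Wnt sources varied more between WT libraries than between genotypes, and WT K79 was the highest of them. Rspo2 was at 1.85, 3.65 and 0.759 CPM in WT K77, K79 and K80, and Rspo3 at 5.34, 6.33 and 3.04 CPM. The hem markers Lmx1a and Trp73 were at 0.327, 2.50 and 0.285 CPM and at 6.54, 11.6 and 2.37 CPM in the same libraries. Not every member followed this order. Wnt2b was highest in WT K80, at 2.62, 2.78 and 3.89 CPM in WT K77, K79 and K80. Rspo1 was nearly equal in WT K77 and K79, at 1.31 and 1.34 CPM. Wnt9a, below the filter, had 0, 1 and 2 counts in WT and 4, 4 and 3 in KO. These values were picked out after they were seen and carry no test.

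Of the other marker lists, 0 of 12 cortical glutamatergic and 0 of 9 postmitotic neuron genes tested were called by edgeR, with 1 and 2 at an unadjusted p under 0.05. DESeq2 called 0 and 1 of them, and limma voom 0 of either. The blocked fit called 0 of the former and 2 of the latter, Dcx lower (adjusted p = 0.0388) and Nefl higher (adjusted p = 0.0112). Without WT K80, 2 glutamatergic genes fell, and without WT K79, 2 neuronal genes rose and 1 fell. The lowest p values were those of Emx1 (-0.58) and Neurod6 (-0.39), and of Dcx (-0.33) and Nefl (0.72). Over the 12 glutamatergic genes the median log2 fold change was -0.27, and over the 9 neuronal genes 0.003. The authors' deposited table called Tbr1 (-0.43), Neurod2 (-0.43) and Neurod6 (-0.39) lower. It also called Dcx (-0.33) lower and Nefl (0.72) higher. Of 4 thalamic, habenular and hypothalamic markers tested, edgeR called 1, Pou4f1, which fell by 2.38. The median log2 fold change of the 4 was 0.30 and the highest 0.70. Of 11 markers of the sorted lineage, 3 rose and 2 fell by edgeR, beside 3.64% higher and 2.62% lower of all tested genes. The lowest p values were those of Maf (-3.07), Gad2 (0.56), Nkx2-1 (0.70) and Sox6 (0.35). Without WT K79, 4 rose, with Lhx8 added (edgeR adjusted p = 0.000215), and 2 fell. For microglia 0 of 1 (Csf1r, -1.001) and for red blood cells 0 of 4 tested genes were called by edgeR, DESeq2 or limma voom, with 0 at an unadjusted p under 0.05. The blocked fit called Hbb-y lower (-1.04), and Hbb-b1 differed by -0.41.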
